A study of Homo sapiens with 6 samples.

Results

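The genes described here encode the nuclear subunits of the oxidative phosphorylation machinery. They were taken from the deposited FPKM table by gene symbol, as the NDUF, SDH, UQCR, COX4 to COX8 and ATP5M, ATP5F and ATP5P names that a fixed pattern matched, and they numbered 79 of the 23569 genes listed. By complex they were 37 genes of complex I, 4 of complex II, 9 of complex III, 11 of complex IV and 18 of complex V. The pattern used names and no measured value. RNA-seq was performed on TFK1, a cell line from a human extrahepatic bile duct carcinoma. The cells had been infected with lentivirus carrying either a negative control (oeNC, n = 3 libraries) or STUB1 (oeSTUB1, n = 3 libraries), and both groups were kept under puromycin selection. STUB1 is an E3 ubiquitin ligase and co-chaperone, and the study asked which genes change when it is overexpressed. Neither group received any other treatment. The labels do not say that the 3 libraries of a group came from separate cultures, so p-values measure the spread between these libraries, which may be technical.

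Oxidative phosphorylation takes place at the inner mitochondrial membrane. Complexes I and II pass electrons from NADH and succinate to coenzyme Q, complex III hands them to cytochrome c, and complex IV gives them to oxygen. Complexes I, III and IV pump protons as they do so, and complex V, the ATP synthase, makes ATP from the return of these protons. Complexes I, III, IV and V are built from subunits of both the nuclear and the mitochondrial genome, while complex II is wholly nuclear-encoded, and the nuclear subunit genes are known for promoters that bind NRF1, GABPA and YY1.

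RefSeq promoter windows of assembly GRCh38.p14, from 250 bases before to 50 bases after the annotated start, were found for 65 of the 79 genes. The NRF1 letters GCATGCGC, searched on both strands, were present in 13 of these 65 windows (20%) and in 3.27% of the 27305 promoters in the table. The GABPA letters CCGGAAGT were in 10 (15.4%) against 4.44% of all promoters, and the YY1 letters AAGATGGCG in 8 (12.3%) against 1.85%. At least 1 of the 3 motifs was found in 25 subunit promoters (38.5%) and in 8.90% of all promoters. Among the 11981 promoters of genes tested here the shares were 5.38% for NRF1, 8.29% for GABPA and 3.64% for YY1, above those of all promoters and under those of the subunits. A match describes the letters alone. The windows of 4 subunits whose mRNA differed between the groups once oeSTUB1-2 was left out are shown, NDUFA2 and COX5A being higher and SDHB and COX5B lower in oeSTUB1, with motif letters in capitals.
NDUFA2 promoter, chr5:140647581-140647880, minus strand: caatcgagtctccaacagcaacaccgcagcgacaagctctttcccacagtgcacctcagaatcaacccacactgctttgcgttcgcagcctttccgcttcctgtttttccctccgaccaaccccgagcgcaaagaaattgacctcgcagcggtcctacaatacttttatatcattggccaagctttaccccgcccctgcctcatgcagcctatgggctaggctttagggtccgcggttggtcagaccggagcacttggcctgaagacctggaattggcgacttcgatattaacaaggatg
COX5A promoter, chr15:74938024-74938323, minus strand: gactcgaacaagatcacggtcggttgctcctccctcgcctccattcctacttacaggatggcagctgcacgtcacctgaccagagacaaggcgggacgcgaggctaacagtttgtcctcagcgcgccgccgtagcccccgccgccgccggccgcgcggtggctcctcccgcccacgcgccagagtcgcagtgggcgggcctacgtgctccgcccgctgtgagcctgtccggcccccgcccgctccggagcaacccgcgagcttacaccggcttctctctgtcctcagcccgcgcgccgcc
SDHB promoter, chr1:17053983-17054282, minus strand: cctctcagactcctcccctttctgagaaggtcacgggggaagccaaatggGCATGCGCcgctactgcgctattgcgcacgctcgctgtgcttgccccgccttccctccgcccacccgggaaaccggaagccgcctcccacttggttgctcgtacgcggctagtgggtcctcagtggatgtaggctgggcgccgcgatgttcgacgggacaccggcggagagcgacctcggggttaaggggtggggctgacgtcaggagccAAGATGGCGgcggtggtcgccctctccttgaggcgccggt
COX5B promoter, chr2:97645812-97646111, plus strand: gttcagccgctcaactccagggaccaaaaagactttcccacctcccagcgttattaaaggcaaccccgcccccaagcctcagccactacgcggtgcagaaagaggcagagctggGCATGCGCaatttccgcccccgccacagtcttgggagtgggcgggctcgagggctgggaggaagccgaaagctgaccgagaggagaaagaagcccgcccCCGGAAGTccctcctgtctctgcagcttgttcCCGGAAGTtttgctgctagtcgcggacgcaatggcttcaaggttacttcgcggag
The COX5B window held the NRF1 letters once and the GABPA letters at 2 places, the SDHB window held the NRF1 and the YY1 letters, and none of the 3 motifs was found in the NDUFA2 and COX5A windows. None was found either in the windows of NDUFA10 and NDUFB3, which were lower, or of NDUFV3, which was higher, without oeSTUB1-2. No window is given here for NDUFC2, NDUFS5 and ATP5MC3, which were also called without that library. Any relation between motifs and the direction of change was not tested. The capitals of one motif did not overlap those of another.

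Library totals recovered from the FPKM values were between 33106564 and 36744521 fragments. STUB1 was at 32.9, 33.0 and 30.9 FPKM in oeNC-1, -2 and -3 and at 61.4, 74.97 and 61.9 FPKM in oeSTUB1-1, -2 and -3, so that each library matched its label. The 7 biliary epithelial markers (KRT7, KRT8, KRT18, KRT19, EPCAM, SOX9 and CDH1) all averaged at least 1 FPKM over the 6 libraries. Their summed level was 7419 to 7996 FPKM in oeNC and 4724 to 6263 FPKM in oeSTUB1. KRT8, KRT18, EPCAM and CDH1 fell and KRT19 rose (adjusted p from 0.000176 to 0.0372 from limma). Of the markers of other cell types, 0 of 7 for hepatocytes, 0 of 4 for endothelium, 1 of 6 for fibroblasts and 2 of 6 for leukocytes averaged at least 1 FPKM, with summed levels of at most 8.29 FPKM in any library. The part of these marker changes in the subunit results was not tested, and in such bulk samples fewer cells of a type and less RNA per cell cannot be told apart.

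The subunit mRNAs were abundant in TFK1 cells. FPKM counts fragments relative to gene length and to the library total, so a comparison of levels between genes depends on the length used for each gene. The recovered lengths ran from 276 bases for UQCRHL to 13442 bases for SDHC. Their part in the order of the genes was not tested. The mean over the 6 libraries was at least 10 FPKM for 70 of the 79 genes and at least 100 FPKM for 20. Among the 75 genes at 1 FPKM or more, the smallest number of fragments in any library was 256 and the largest was 38194. ATP5F1B, the catalytic beta subunit of ATP synthase, stood highest, at 576, 566 and 556 FPKM in oeNC and 533, 656 and 566 FPKM in oeSTUB1. Next were COX6B1, a subunit on the outer face of cytochrome c oxidase, and COX6A1, the isoform of most tissues. Under 1 FPKM were COX6B2 and COX8C, testis isoforms, ATP5MGL, a copy of the ATP5MG gene, and ATP5F1E. COX8C was listed at 0 in 4 libraries and at most 0.054 FPKM in the others, and it was left out of the tests by the minimum of 0.1 FPKM in the mean. The other 78 genes were tested.

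**Figure D1:**
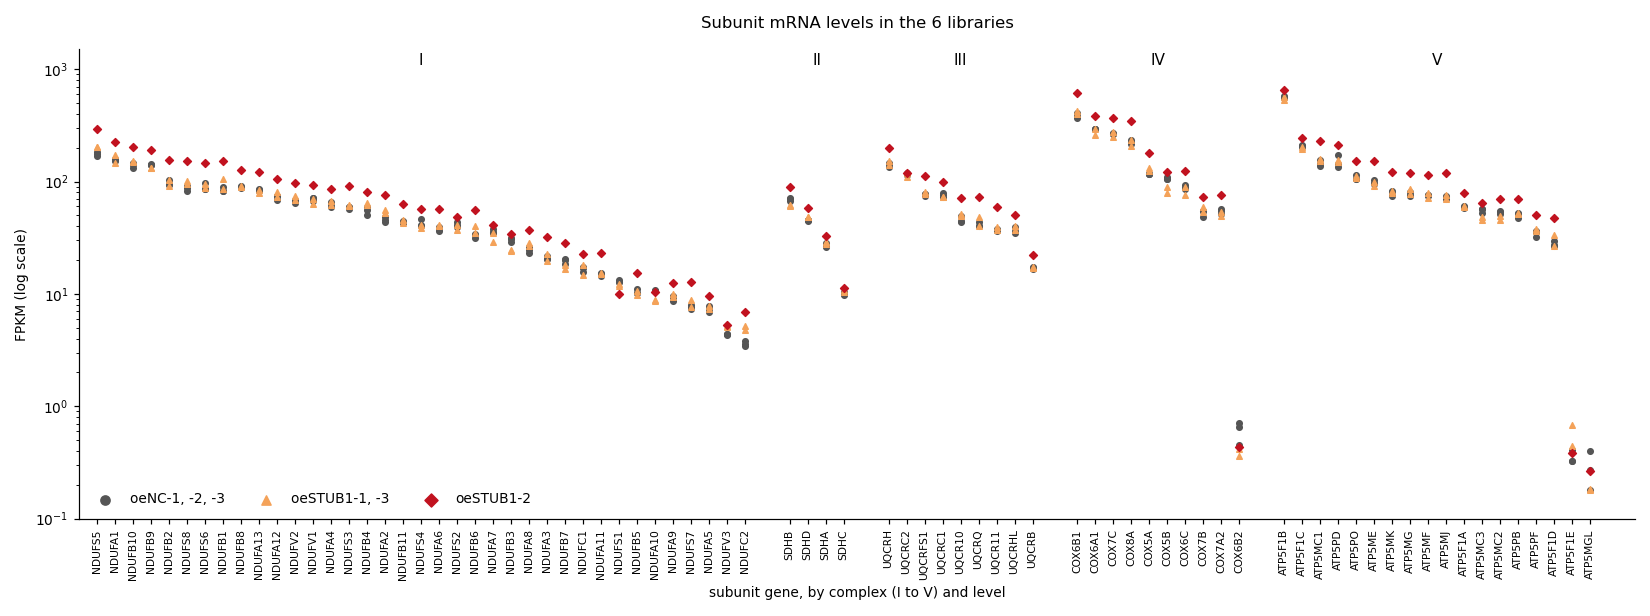
Level of each of the 78 tested subunit genes (x axis, grouped by complex I to V and ordered by mean level) in FPKM on a log scale (y axis), with 1 point per library. The red diamonds of oeSTUB1-2 lie above the other 5 libraries for 72 genes.

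ATP5F1E, the epsilon subunit of the central stalk, was at 0.33, 0.33 and 0.41 FPKM in oeNC and 0.68, 0.38 and 0.45 FPKM in oeSTUB1, whereas ATP5F1D, the delta subunit that sits beside it, was at 26.9 to 47.3 FPKM over the 6 libraries. The length recovered for ATP5F1E was 3610 bases and that for ATP5F1D 995 bases. How fragments on shared sequence were counted is not given in the sources used here, and its part in these levels was not tested. RefSeq names at least 1 pseudogene for 49 of the 79 genes, 204 in all, with up to 18 for COX6C, and 44 of the 79 genes share exonic bases with another gene in GENCODE release 29. For ATP5ME, 61.6% of the exonic bases lie under MYL5 on the opposite strand. UQCRHL, a retrocopy of the complex III hinge subunit UQCRH, was listed at 35.0 to 49.9 FPKM beside 136 to 199 FPKM for UQCRH. UQCRHL made up 20.7% ± 0.936 of the FPKM of the pair in oeNC and 20.7% ± 0.565 in oeSTUB1 (SD, n = 3 each), so the split between the 2 copies was alike in both groups, and both levels are uncertain.

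Between oeSTUB1 and oeNC the subunit mRNAs leaned upward by a small amount, and nearly the whole shift lay in a single library, oeSTUB1-2. The median log2 fold change of the 78 genes was 0.19, beside 0.02 for all 15353 genes tested, and 68 of 78 (87.2%) were above 0 beside 52.6% of all genes. With limma on log2(FPKM + 0.1) and Benjamini-Hochberg adjustment over all 15353 genes, 1 subunit gene, NDUFC2, was higher and 0 were lower at an adjusted p under 0.05. That is 1.28% of the subunits, whereas 7.01% of all genes were higher and 6.59% were lower by the same rule. At an unadjusted p under 0.05, limma gave 5 subunit genes higher (6.41%; 16% of all genes) and 1 lower (1.28%; 13.7% of all genes), so these shares too lay under those of all genes. limma-voom on the recovered fragments also called 1 higher and 0 lower. The 3 oeSTUB1 values all lay above the 3 oeNC values for 16 subunits (20.5%; 21.5% of all genes) and all below them for 3 (3.85%; 17.3% of all genes). No subunit changed as much as 2-fold, since the log2 fold changes ran from -0.48 for COX6B2 to 0.62 for NDUFC2.

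oeSTUB1-2 held the highest of the 6 values for 72 of 78 subunits (92.3%), where it was highest for 30.4% of all genes. The median subunit log2 level, set against its oeNC mean, was 0.04, -0.0021 and -0.04 in oeNC-1, -2 and -3, and -0.01, 0.49 and 0.07 in oeSTUB1-1, -2 and -3. oeSTUB1-2 thus stood apart, and oeSTUB1-1 and -3 stayed close to the oeNC libraries. The FPKM of the 79 subunits summed to 6394, 6185 and 6015 in oeNC and to 6043, 8772 and 6452 in oeSTUB1. The median coefficient of variation of a subunit was 4.46% over the oeNC libraries and 21.3% over the oeSTUB1 libraries. By complex, the median of oeSTUB1-2 against the oeNC mean was 0.54 for complex I, 0.32 for II, 0.49 for III, 0.48 for IV and 0.49 for V on the log2 scale.

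**Figure D2:**
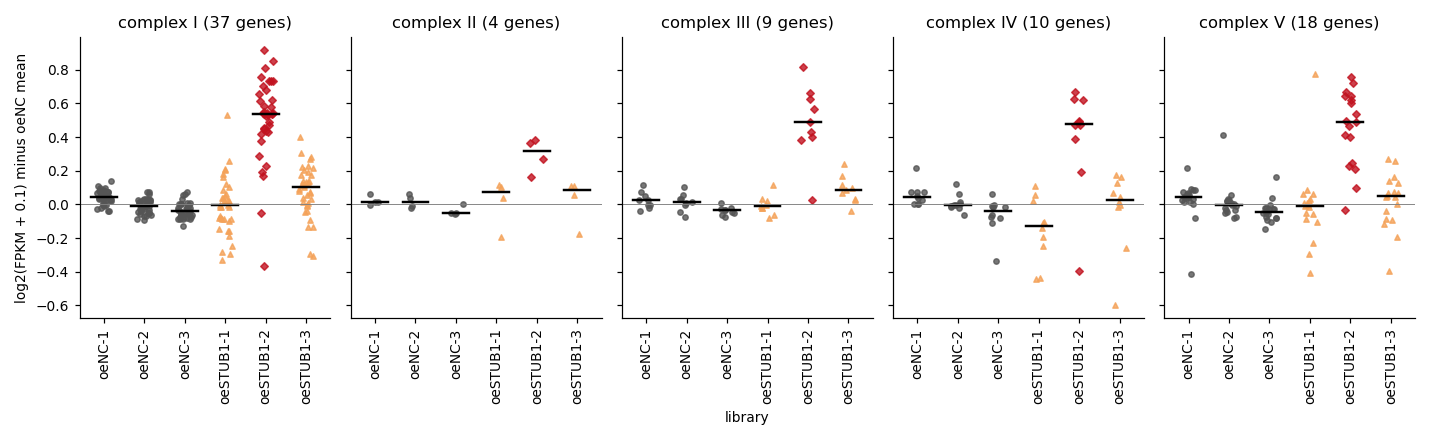
Each subunit's log2(FPKM + 0.1) minus its oeNC mean (y axis) in each of the 6 libraries (x axis), in 1 panel per complex, with a black bar at the median. The oeSTUB1-2 medians lie between 0.32 and 0.54, and those of oeSTUB1-1 and oeSTUB1-3 between -0.13 and 0.10.

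The shift of oeSTUB1-2 was also found outside these complexes. Taken against the mean of oeSTUB1-1 and -3, oeSTUB1-2 was higher by a median of 0.49 (log2) for the subunits, 0.40 for 77 mitochondrial ribosomal protein genes and 0.51 for 83 cytosolic ribosomal protein genes, and by -0.01 for all genes tested. For the 13 protein-coding genes of the mitochondrial genome, which encode the partner subunits of complexes I, III, IV and V, the median was -0.15. It was 0.11 for 20 genes of the tricarboxylic acid cycle and -0.05 for 21 regulators of mitochondrial biogenesis.

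Gene length moved with this offset. The lengths recovered from the FPKM values had a median of 1257 bases for the subunits and 3694 bases for all genes tested. Under 1000 bases, the median offset of oeSTUB1-2 was 0.54 for 33 subunits, 0.38 for all 1291 genes and 0.53 for the 321 of these genes with at least 10 FPKM, the level of 70 of the 79 subunits. From 1000 to 2000 bases it was 0.48 for 23 subunits, 0.32 for all genes and 0.37 for those of at least 10 FPKM. From 2000 to 4000 bases it was 0.42 for 13 subunits, 0.12 for all genes and 0.15 for those of at least 10 FPKM. At 4000 bases or more it was 0.33 for 9 subunits, -0.23 for all genes and -0.21 for those of at least 10 FPKM. Subunits and the median short gene were thus raised in oeSTUB1-2, and the offset of both groups declined with length. The 13 genes of the mitochondrial genome were an exception, with a median length of 784 bases and a median offset of -0.15. The median length was 3110 bases for the tricarboxylic acid cycle genes and 5026 bases for the biogenesis regulators. Across genes, which are not independent replicates and share these libraries, Spearman's rho between offset and length was -0.51 over the 78 subunits and -0.56 over all 15353 genes. The part of length in the difference was not tested beyond a fit in which a lowess curve on length was taken out of every library. In that fit the median log2 fold change of the subunits was 0.14, and 6 subunits were higher (7.69%; 10.9% of all genes) and 1 lower (1.28%; 10.7% of all genes). The 6 were NDUFC2, NDUFA2, NDUFS5, NDUFB4, NDUFS8 and COX5A, and the lower one was COX5B.

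**Figure D3:**
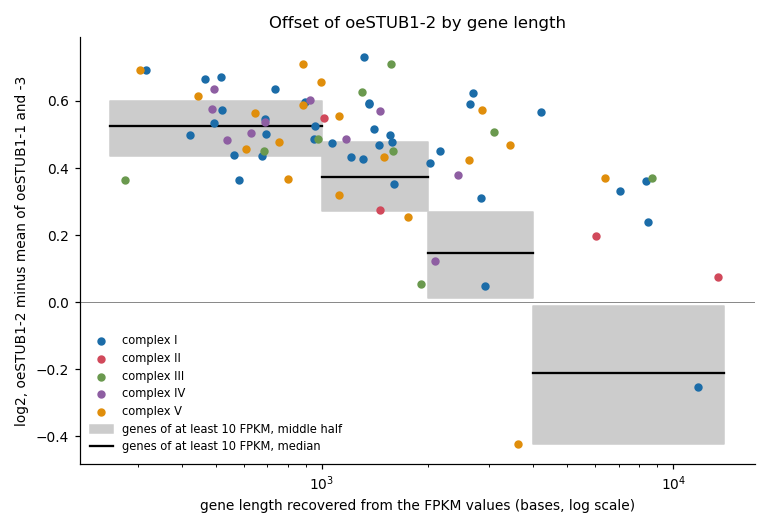
Difference of oeSTUB1-2 from the mean of oeSTUB1-1 and -3 in log2(FPKM + 0.1) (y axis) against gene length in bases on a log scale (x axis), with 1 point per subunit gene coloured by complex. Black lines and grey bands give the median and the middle 50% of all genes of at least 10 FPKM in 4 length classes, where the median declines from 0.53 to -0.21.

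Without oeSTUB1-2 the subunits moved in both directions and their median fold change came to that of all genes. The median log2 fold change was then 0.03 for the 78 subunits and 0.03 for all genes, and 20 subunits went from a positive to a negative value. At an adjusted p under 0.05 from limma, 5 subunits were higher and 5 lower, 6.41% in each direction, beside 14.8% of all genes higher and 12% lower. The higher ones were NDUFC2, NDUFA2, NDUFS5, NDUFV3 and COX5A. The lower ones were NDUFA10, NDUFB3, SDHB, COX5B and ATP5MC3. In GENCODE release 29, 13.04% of the exonic bases of NDUFA2 and 19.8% of those of NDUFB3 lie under genes of the opposite strand, and the use of strand in counting is not given in the sources used here. All of these 10 genes but NDUFC2, SDHB, COX5A, COX5B and ATP5MC3 are named because their values were seen.

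**Figure D4:**
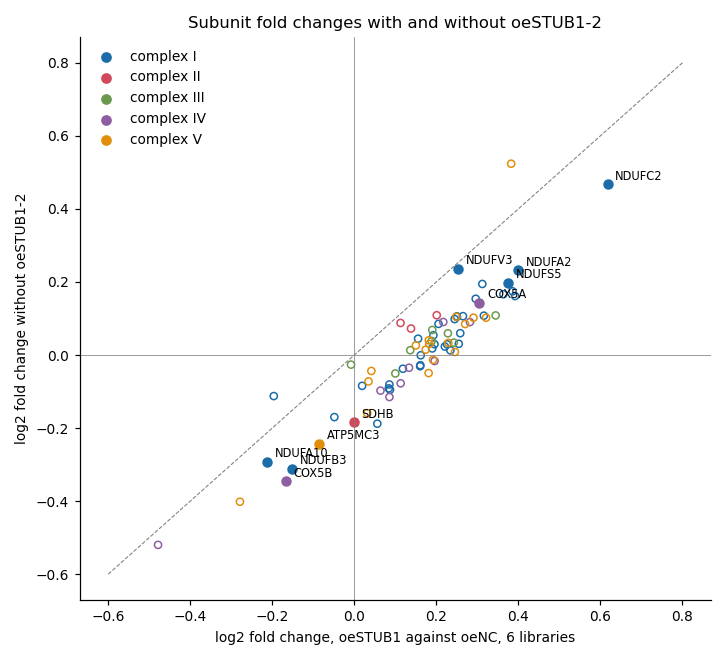
Log2 fold change of each subunit between oeSTUB1 and oeNC over 6 libraries (x axis) and without oeSTUB1-2 (y axis), coloured by complex, with filled points for an adjusted p under 0.05 without oeSTUB1-2. Most points lie below the dashed line of equal values, and NDUFC2 lies farthest to the right at 0.62.

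In complex I, whose 37 genes had a median log2 fold change of 0.22, NDUFC2 was the subunit that rose. NDUFC2 is an accessory subunit of the membrane arm, and its gene lies on chromosome 11. It was at 3.77, 3.41 and 3.55 FPKM in oeNC and 5.22, 6.84 and 4.75 FPKM in oeSTUB1. All 3 oeSTUB1 values were above all 3 oeNC values, and oeSTUB1-2 was the highest. The log2 fold change was 0.62 (SE 0.14, adjusted p = 0.0274 from limma) and without oeSTUB1-2 it was 0.47 (SE 0.08, adjusted p = 0.0077 from limma). Over all 17 fits it stayed between 0.47 and 0.73, and the adjusted p, which ranged from 0.00657 to 0.113, was under 0.05 in 12 fits. In GENCODE release 29, 16.3% of its exonic bases also belong to the readthrough gene NDUFC2-KCTD14 on the same strand, so fragments there cannot be assigned to either gene.

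NDUFA2, NDUFS5 and NDUFV3 also had higher values in all 3 oeSTUB1 libraries. NDUFA2, an accessory subunit of the matrix arm, was at 48.5, 45.7 and 43.8 FPKM in oeNC and 52.2, 76.5 and 55.9 FPKM in oeSTUB1. Its log2 fold change was 0.40 (adjusted p = 0.105 from limma) and 0.23 without oeSTUB1-2 (adjusted p = 0.0244). NDUFS5, an accessory subunit facing the intermembrane space, was at 183, 176 and 170 FPKM in oeNC and 203, 293 and 201 FPKM in oeSTUB1. For both genes the oeSTUB1-2 value was well above the other 2 of its group. The values for NDUFS5 were 0.38 (adjusted p = 0.136) and 0.20 without that library (adjusted p = 0.0174). NDUFV3, a small accessory subunit of the NADH-oxidising module, showed almost no excess in oeSTUB1-2, with 4.27, 4.44 and 4.36 FPKM in oeNC and 5.22, 5.33 and 5.08 FPKM in oeSTUB1. Its log2 fold change of 0.25 had an adjusted p of 0.0907 over 6 libraries and became 0.24 with an adjusted p of 0.0406 without oeSTUB1-2. NDUFV3 was called in that fit and in none of the other 16.

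NDUFA10, NDUFB3 and NDUFS1 are the complex I subunits encoded on chromosome 2. NDUFA10, an accessory subunit of the membrane arm, was at 10.9, 10.7 and 10.6 FPKM in oeNC and 8.83, 10.4 and 8.69 FPKM in oeSTUB1. Its log2 fold change was -0.21 (adjusted p = 0.173 from limma) and -0.29 without oeSTUB1-2 (adjusted p = 0.00822). NDUFB3, an accessory subunit of the distal membrane arm, was at 31.5, 30.6 and 28.8 FPKM in oeNC and 24.1, 34.04 and 24.7 FPKM in oeSTUB1. The groups did not overlap for NDUFA10, while for NDUFB3 oeSTUB1-2 lay above the oeNC libraries and the other 2 lay below. The change of NDUFB3 was -0.15 (adjusted p = 0.494) and -0.31 without oeSTUB1-2 (adjusted p = 0.00609). NDUFS1, the largest iron-sulfur subunit, was at 12.9, 13.2 and 12.7 FPKM in oeNC and 12.1, 10.01 and 11.8 FPKM in oeSTUB1. It was the subunit for which oeSTUB1-2 was the lowest of the 6 libraries, and its recovered length was 11774 bases. Its log2 fold change of -0.20 did not pass the test with or without that library (adjusted p = 0.208 and 0.155).

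The other complex I subunits passed no test over the 6 libraries. Besides the 4 genes above, NDUFA6, NDUFA8, NDUFB4, NDUFB6, NDUFB10, NDUFS3, NDUFS8 and NDUFV2 had all 3 oeSTUB1 values above the oeNC values, with log2 fold changes between 0.25 and 0.39. In all, 12 of the 37 complex I genes lay above and 2 below in this way. Of all genes tested, 21.5% lay above and 17.3% below. NDUFB4 and NDUFS8, the latter an iron-sulfur subunit of the arm that reduces coenzyme Q, were called with the length correction alone, at 0.24 and 0.30 (adjusted p = 0.0401 and 0.0474). NDUFA4, which carries a complex I name and is now counted with complex IV and named COXFA4 in RefSeq, was at 62.8, 65.3 and 59.5 FPKM in oeNC and 62.2, 86.6 and 67.6 FPKM in oeSTUB1, and the groups overlapped.

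Complex II is succinate dehydrogenase, which also acts in the tricarboxylic acid cycle. Its 4 genes had the smallest median excess in oeSTUB1-2 of the 5 complexes. Their median recovered length was 3754 bases, beside 808 to 1573 bases for the other complexes. Against the mean of oeSTUB1-1 and -3, the excess was 0.55 for SDHB (1015 bases) and 0.28 for SDHD (1469 bases). It was 0.20 for SDHA (6039 bases) and 0.08 for SDHC (13442 bases). The part of length here was not tested. SDHA, the flavoprotein, was at 28.2, 26.9 and 26.1 FPKM in oeNC and 27.8, 32.7 and 29.2 FPKM in oeSTUB1. SDHC, a membrane anchor, was at 10.04, 10.5 and 9.69 FPKM in oeNC and 10.9, 11.3 and 10.5 FPKM in oeSTUB1. SDHD, the other anchor, was at 45.4, 44.3 and 45.0 FPKM in oeNC and 48.3, 58.7 and 48.6 FPKM in oeSTUB1. SDHD was the only gene of the complex whose groups did not overlap. The log2 fold changes were 0.14 for SDHA, 0.11 for SDHC and 0.20 for SDHD, none of which passed the test (adjusted p from 0.194 to 0.381). SDHB, the iron-sulfur subunit, was at 70.0, 71.0 and 66.7 FPKM in oeNC and 60.5, 89.1 and 61.3 FPKM in oeSTUB1. oeSTUB1-2 was thus above and the other 2 below every oeNC library, so that the log2 fold change was -0.0016 over 6 libraries (adjusted p = 0.995) and -0.18 (SE 0.04, adjusted p = 0.0218 from limma) without oeSTUB1-2. The other 3 genes of the complex had positive values of 0.07 to 0.11 in that fit, none of which passed the test.

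The 9 genes of complex III, the cytochrome bc1 complex, gave no call in any of the 17 fits. UQCRFS1, the Rieske iron-sulfur protein, was at 77.8, 76.9 and 74.7 FPKM in oeNC and 78.3, 113 and 81.1 FPKM in oeSTUB1. UQCRC1, a core subunit, was at 75.4, 78.5 and 72.8 FPKM in oeNC and 72.4, 99.8 and 73.4 FPKM in oeSTUB1. UQCRC2, the other core subunit, was at 118, 116 and 114 FPKM in oeNC and 110, 118 and 119 FPKM in oeSTUB1. The mRNAs of these 3 subunits of one complex differed in their excess in oeSTUB1-2. It was 0.51, 0.45 and 0.06 on the log2 scale against the other 2 oeSTUB1 libraries. The log2 fold changes were 0.23, 0.10 and -0.01. The small subunits UQCRQ, UQCR10, UQCR11, UQCRB and UQCRH had log2 fold changes from 0.14 to 0.34 over 6 libraries and from 0.01 to 0.14 without oeSTUB1-2.

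Complex IV, cytochrome c oxidase, had a median log2 fold change of 0.12 over its 10 tested genes, and of -0.06 without oeSTUB1-2. COX5A and COX5B are both subunits on the matrix side and moved in opposite directions once oeSTUB1-2 was left out. COX5A was at 116.04, 115.8 and 115.9 FPKM in oeNC and 125, 179 and 131 FPKM in oeSTUB1, with all oeSTUB1 values higher. COX5B, encoded on chromosome 2, was at 110, 106 and 106 FPKM in oeNC and 79.2, 122 and 89.7 FPKM in oeSTUB1, with oeSTUB1-2 above and the other 2 below the oeNC values. The log2 fold change of COX5A was 0.31 (adjusted p = 0.177 from limma) and 0.14 without oeSTUB1-2 (SE 0.04, adjusted p = 0.036). The log2 fold change of COX5B was -0.17 (adjusted p = 0.5) and -0.35 without oeSTUB1-2 (SE 0.06, adjusted p = 0.00604).

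Of the remaining complex IV genes, COX6A1 was at 295, 297 and 291 FPKM in oeNC and 258, 385 and 294 FPKM in oeSTUB1. COX6C, a small membrane subunit on chromosome 8, was at 89.3, 85.3 and 93.3 FPKM in oeNC and 75.3, 125 and 90.1 FPKM in oeSTUB1. COX7A2, an isoform of most tissues, was at 56.9, 54.2 and 51.0 FPKM in oeNC and 49.0, 76.1 and 53.4 FPKM in oeSTUB1. In each, oeSTUB1-1 was the lowest and oeSTUB1-2 the highest of the 6 libraries, and the log2 fold changes of 0.06, 0.09 and 0.11 did not pass the test. The testis isoform COX6B2 was at 0.71, 0.66 and 0.45 FPKM in oeNC and 0.42, 0.43 and 0.36 FPKM in oeSTUB1, a log2 fold change of -0.48 that did not pass the test (adjusted p = 0.157 from limma) although the groups did not overlap. In GENCODE release 29, 30.9% of its exonic bases lie under another gene on the same strand.

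In complex V no gene passed the test over the 6 libraries. ATP5F1A, the alpha subunit, was at 60.8, 59.3 and 58.3 FPKM in oeNC and 59.9, 78.4 and 61.2 FPKM in oeSTUB1. ATP5F1C, the gamma subunit of the rotor, was at 208, 211 and 204 FPKM in oeNC and 193, 247 and 202 FPKM in oeSTUB1. The log2 fold changes were 0.15 for ATP5F1A, 0.04 for ATP5F1B, 0.03 for ATP5F1C, 0.32 for ATP5F1D and 0.38 for ATP5F1E, and none passed the test in any of the 17 fits. The peripheral stalk subunits ATP5PB, ATP5PD, ATP5PF and ATP5PO had log2 fold changes from 0.17 to 0.25, and the membrane subunits ATP5ME, ATP5MF, ATP5MG, ATP5MJ and ATP5MK from 0.18 to 0.27, without a call in any of these fits. Without oeSTUB1-2 the stalk subunits ran from 0.01 to 0.10 and the membrane subunits from -0.05 to 0.08, with negative values for ATP5ME and ATP5MF.

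The c-ring, the membrane rotor of ATP synthase, is built from 1 mature protein encoded by ATP5MC1, ATP5MC2 and ATP5MC3. ATP5MC1 was at 154, 144 and 137 FPKM in oeNC and 151, 230 and 160 FPKM in oeSTUB1. ATP5MC2 was at 53.3, 50.9 and 54.2 FPKM in oeNC and 45.1, 70.3 and 49.6 FPKM in oeSTUB1. ATP5MC3, on chromosome 2, was at 57.3, 56.6 and 52.7 FPKM in oeNC and 45.3, 65.0 and 48.5 FPKM in oeSTUB1. As with COX5B, oeSTUB1-2 lay above and the other 2 oeSTUB1 libraries below the oeNC values of ATP5MC3. The log2 fold change of ATP5MC3 was -0.09 over 6 libraries (adjusted p = 0.711 from limma) and -0.24 without oeSTUB1-2 (SE 0.06, adjusted p = 0.0179). Shares of the 3 genes within the family, a comparison chosen after the values were seen, did not set oeSTUB1-2 apart. ATP5MC3 gave 21.6%, 22.5% and 21.6% of the family's FPKM in oeNC and 18.7%, 17.8% and 18.8% in oeSTUB1. ATP5MC1 gave 58.2%, 57.3% and 56.2% in oeNC and 62.6%, 63.0% and 62.0% in oeSTUB1. Neither set of shares overlapped between the groups, and the mean differences were -3.47 percentage points for ATP5MC3 and 5.30 for ATP5MC1 (two-sided exact permutation test, p = 0.1 for each, as for ATP5MC2, the smallest that 3 libraries against 3 allow).

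**Figure D5:**
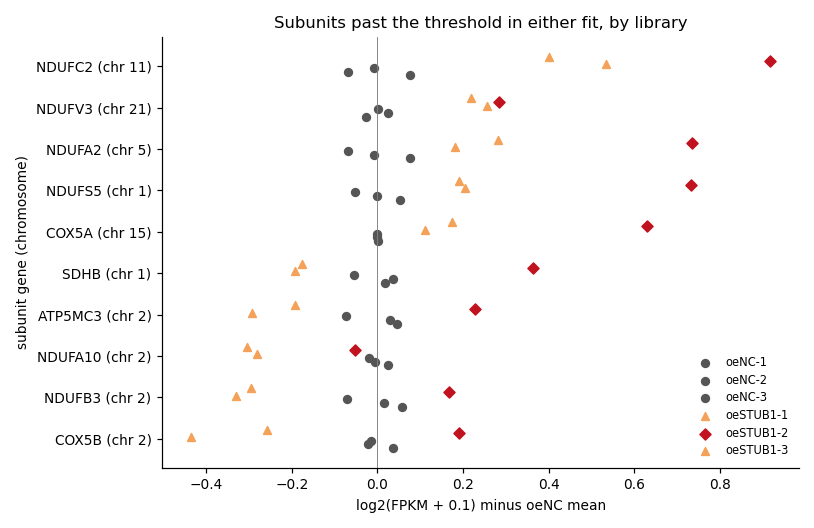
Log2(FPKM + 0.1) minus the oeNC mean (x axis) in each of the 6 libraries for the 10 subunits with an adjusted p under 0.05 over 6 libraries or without oeSTUB1-2 (y axis, with the chromosome of each gene). oeSTUB1-2 lies to the right of oeSTUB1-1 and -3 for all 10, and for SDHB, ATP5MC3, NDUFB3 and COX5B it lies on the other side of the oeNC libraries from them.

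The 5 subunits encoded on chromosome 2, NDUFA10, NDUFB3, NDUFS1, COX5B and ATP5MC3, belong to 3 complexes, and all had negative log2 fold changes. Their median was -0.17, and -0.29 without oeSTUB1-2, where 4 of the 5 were called lower, beside 12% of all genes. The share of calls among all genes of chromosome 2 is not given here, so the count shows nothing particular to these subunits. Set against the median of the other 73 subunits within each library, the median of the 5 was -0.01, 0.02 and 0.02 in oeNC-1, -2 and -3 and -0.29, -0.37 and -0.33 in oeSTUB1-1, -2 and -3 on the log2 scale. The difference of the medians was thus of like size in all 3 oeSTUB1 libraries, although both medians were raised in oeSTUB1-2. The 5 genes were not alike in this. In oeSTUB1-2, NDUFS1 was at -0.36 and NDUFA10 at -0.05 against the oeNC mean (log2). NDUFB3, COX5B and ATP5MC3 were at 0.17, 0.19 and 0.23 there. The median log2 fold change of all 1031 genes tested on chromosome 2 was -0.21, and -0.18 without oeSTUB1-2. That lower level was known beforehand, so the 5 subunits are no independent evidence of it. The subunits on chromosome 9, NDUFA8 and NDUFB6, had log2 fold changes of 0.30 and 0.36, without a call.

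Genes that build or serve these complexes were set beside them in lists chosen by function. Of 58 assembly factors of the 5 complexes, 1 was higher and 0 were lower over the 6 libraries, with a median log2 fold change of 0.16. Without oeSTUB1-2 these were 6 higher and 5 lower with a median of 0.04, and with the length correction 5 higher and 1 lower. Of all genes, 7.01% were higher and 6.59% lower over the 6 libraries. These shares were 14.8% and 12% without oeSTUB1-2 and 10.9% and 10.7% with the length correction. The assembly factors were thus called no more often than all genes. The factor called higher over the 6 libraries was COX16, an assembly factor of complex IV. It was at 1.09, 1.05 and 0.88 FPKM in oeNC and 1.37, 1.502 and 1.67 FPKM in oeSTUB1 (log2 fold change 0.54, adjusted p = 0.0433 from limma). oeSTUB1-2 did not stand apart for this gene. Another list held 11 tested genes that the name pattern leaves out, among them COX4I1, CYC1, CYCS and NDUFAB1. SOD2, the mitochondrial superoxide dismutase, rose by 0.79 (adjusted p = 0.00143) and the other 10 did not pass the test. This is 1 higher call of 11, where 7.01% of all genes were higher. Without oeSTUB1-2 the list gave 3 higher and 1 lower, and with the length correction 2 higher and 0 lower. These counts are too small to set the list apart from all genes, and the difference in shares was not tested.

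Of the 20 tricarboxylic acid cycle genes, ACO1 and IDH3A rose and none fell over the 6 libraries, a share near the 7.01% of all genes that were higher. Without oeSTUB1-2, 6 were higher and 2 lower, where 14.8% of all genes were higher and 12% lower. With the length correction 4 were higher and 2 lower, where 10.9% of all genes were higher and 10.7% lower. In both fits the share of higher calls lay above that of all genes, and the share of lower calls did not. These are few calls among 20 genes listed by hand, and the difference in shares was not tested. ACO1 encodes the cytosolic aconitase, which also acts as an iron-sensing RNA-binding protein, and its log2 fold change was 0.58 (adjusted p = 0.00334 from limma). IDH3A, a subunit of mitochondrial isocitrate dehydrogenase, was at 20.9, 20.4 and 21.05 FPKM in oeNC and 24.4, 24.4 and 25.6 FPKM in oeSTUB1, a log2 fold change of 0.26 (adjusted p = 0.0479). Of the 13 coenzyme Q synthesis genes, COQ8A, an atypical kinase of that pathway, fell from 6.90, 7.07 and 6.88 FPKM in oeNC to 4.398, 5.59 and 4.402 FPKM in oeSTUB1. Its change of -0.53 (log2) had an adjusted p of 0.0205. COQ8A was the only call of that list, where 6.59% of all genes were lower and 7.01% higher. No gene of the mitochondrial genome (13 tested), of the biogenesis regulators (21) or of mitochondrial protein import (23) passed the test. At an unadjusted p under 0.05, limma gave 1, 3 and 5 genes in these 3 lists, all of them higher in oeSTUB1. By that rule 16% of all genes were higher and 13.7% lower. The counts are too small to set a list apart from all genes, and the difference in shares was not tested. The median log2 fold changes of these 3 lists were 0.02, 0.02 and 0.12. Without oeSTUB1-2 the calls were 1 higher and 1 lower, 2 higher and 1 lower, and 3 higher and 2 lower, with medians of 0.03, 0.03 and 0.01. Of all genes, 14.8% were higher and 12% lower in that fit.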

How the data were processed

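RNA-seq libraries of TFK1 cells (oeNC, n = 3, and oeSTUB1, n = 3) were grouped by their labels. The authors deposited FPKM values for 23569 genes. The submitters' processing notes name fastp 0.20.1, HISAT2 2.1.0, HTSeq 0.11.2, R 3.2.0, DESeq2 1.22.2 and the build GRCh38.p13, with no parameters, so the use of strand and the handling of multiply mapped reads are unknown. Whole fragments and gene lengths, each known up to a common factor, were recovered from the FPKM steps for 100% of genes (tolerance 0.0002), and they gave back the deposited FPKM within 4.93e-06.

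limma 3.58.1 in R 4.3.3 (trended eBayes, two-sided, no minimum fold) was run on log2(FPKM + 0.1) for the 15353 genes averaging 0.1 FPKM or more, with Benjamini-Hochberg adjustment over all of them and a threshold of 0.05. Fold changes on this scale understate those of low genes. The notes name DESeq2, but how it was applied to these libraries is not given in the sources used here. Other fits used a pseudocount of 1 or 0.01, no filter, a minimum of 1 FPKM, median-ratio scaling, quantile normalization, no trend, the replicate number as a block, limma-voom on the recovered fragments, a lowess correction for gene length and leaving out each library. The procedure was tested on simulated data.

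The subunits, lists and named genes were chosen with earlier results of these data known. Named by rule were called subunits, the complex II genes, core and isoform subunits of complexes III to V, and called genes of each list. Promoters and gene names came from RefSeq GRCh38.p14 (79 of 79 symbols matched, 1 of them by an older symbol, and the first listed start of each gene) and overlaps from GENCODE release 29. Marker lists, named above, and the lists of related genes were written by hand. Summaries and plots were made in Python 3.11.15.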

Additional observations from a re-analysis of the deposited data

How the results depend on the processing

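Against 1 higher subunit, NDUFC2, over 6 libraries, 0 were called with no filter, 2 with quantile normalization and 6 with the length correction, and 0 to 5 with 1 library left out. Against 0 lower subunits, 1 was called with the length correction and 0 to 5 with 1 library left out. The 5 higher and 5 lower calls came without oeSTUB1-2. NDUFC2 lost its call without any 1 of the oeNC libraries or oeSTUB1-1. NDUFC2 kept its call without oeSTUB1-2 (adjusted p = 0.0077 from limma) and without oeSTUB1-3 (adjusted p = 0.0253 from limma). The cause of these differences was not tested. The median log2 fold change of the subunits lay between 0.03, without oeSTUB1-2, and 0.28, without oeSTUB1-1. The replicate number as a block (paired fit with replicate block) gave 1 higher and 0 lower subunits and a median of 0.19. Deviations of same-numbered libraries correlated at -0.05, -0.05 and 0.06, which gave no sign of pairing by number. With 3 libraries a group these values cannot exclude a pairing.

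Of 31 subunits followed through 16 other fits, 24 of 494 values had another sign, all with no call in either fit. With quantile normalization they were -0.0069 for UQCRC1, -0.020 for COX6A1, -0.025 for ATP5F1B, -0.029 for ATP5F1C and -0.050 for ATP5MC2. With the length correction they were -0.025 for COX6A1, -0.0045 for COX6C, -0.028 for ATP5F1B, -0.054 for ATP5F1C and -0.014 for ATP5MC2. With 1 library left out, the range was -0.18 to 0.094 for SDHB, -0.050 to 0.18 for UQCRC1, -0.098 to 0.19 for COX6A1, -0.11 to 0.25 for COX6C, -0.077 to 0.24 for COX7A2, -0.044 to 0.11 for ATP5F1B, -0.072 to 0.10 for ATP5F1C, -0.16 to 0.16 for ATP5MC2 and -0.24 to 0.018 for ATP5MC3, each lowest without oeSTUB1-2 and highest without oeSTUB1-1. For UQCRC2 it was -0.027 without oeSTUB1-3 to 0.029 without oeSTUB1-1. Another 16 values passed the threshold that they had missed, and 5 no longer passed it. Of the tested subunits, ATP5MGL had the fewest fragments, 5 to 11 a library.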
